A study of Mus musculus with 2 samples.

Results

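The 8 genes described here code for proteins of endothelial and epithelial cell junctions: *Cdh5*, *Cldn5*, *Cldn18*, *Ocln*, *Tjp1*, *Esam*, *F11r* and *Jam2*. They were matched by gene symbol among the 31053 genes listed in the count matrices, and all 8 had UMIs in both libraries. They were read in dissociated lungs of wild-type C57/B6 mice aged 2 to 4 months, with 1 library from mice in normoxia and 1 library from mice kept for 3 weeks in 10% oxygen. The hypoxia chamber was used with male mice according to the methods of the study, which names 3 animals and does not state whether their cells were pooled. Before capture, CD45-positive and CD326-positive (Epcam-positive) cells were removed from both suspensions with antibody-coated beads, so the leukocytes and epithelial cells described below are those that remained. Single cells were captured with 10x Chromium 3′ chemistry, in which a unique molecular identifier (UMI) marks each captured transcript.

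Neighbouring endothelial cells (ECs) hold together through adherens junctions, in which the cadherin of one cell binds that of the next and is linked inside the cell to catenins and actin. Tight junctions seal the space between cells with strands of claudins and occludin, tied to actin by scaffold proteins such as ZO-1, and immunoglobulin-type adhesion molecules lie beside them. In the lung, claudin-5 is the known claudin of the vascular wall and claudin-18 that of the alveolar epithelium, and together these barriers keep fluid out of the air space.

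The kept cells numbered 1348 in normoxia and 689 in hypoxia, with medians of 3453 and 2224 UMIs. They formed 28 clusters, with the 8 genes left out of the clustering. Of the clusters, 17 with 879 normoxia and 595 hypoxia cells were EC-like by 10 EC markers and the markers of EC subtypes, which include none of the 8. Within the EC-like cells, marker gates gave 122 normoxia and 65 hypoxia aerocyte capillary cells, the thin capillary cells of the gas-exchange surface, and 612 and 129 general capillary cells. A capillary group high in *Ntrk2* held 23 normoxia and 260 hypoxia cells and stands almost wholly in 1 library, so cell type and library cannot be told apart there. Arterial cells numbered 42 and 57, *Vwf*-high non-arterial cells, gated on venous markers, 47 and 28, lymphatic cells 10 and 4, and 23 and 52 EC-like cells had no subtype. Of the gated arterial cells of both libraries, 17 lay in the arterial cluster, 48 in general capillary clusters and 33 in *Ntrk2*-high clusters. Of the gated *Vwf*-high cells, 62 lay in the *Vwf*-high cluster, 7 in general capillary, 5 in *Ntrk2*-high and 1 in aerocyte clusters. The *Vwf*-high cluster held 50 normoxia and 19 hypoxia cells. Outside the ECs, 45 normoxia and 12 hypoxia cells were like type 1 alveolar epithelium (AT1-like), 5 and 6 AT2-like, 189 and 35 fibroblast-like, 46 and 6 pericyte-like, 18 and 5 platelet-like, and 19 and 3 leukocyte-like, and 16 normoxia cells and 0 hypoxia cells were SMC-like. A shallow cluster of 131 and 27 cells stayed unnamed. General capillary cells were much shallower in hypoxia, with a median of 1410 UMIs against 3609.5 in normoxia. Each condition has 1 library, so no test was made, library and condition cannot be told apart, and every 95% confidence interval (CI) covers counting error only. A level is the sum of a gene's UMIs over a group of cells per 1000000 UMIs of the same cells (CPM), and levels are compared within a gene only.

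The starts of the claudin genes *Cldn5* and *Cldn18* are shown because these genes had the clearest split between cell classes. In mouse GRCm38, *Cldn5* spans 18776847 to 18778262 of chromosome 16, plus strand, in 1 exon. *Cldn18* lies on chromosome 9 from 99689461 to 99717267 on the minus strand, with 5 exons, and the antisense gene *Gm16004* overlaps it. RefSeq gives *Cldn18* an upstream and a downstream start. Each window holds 250 bases before and 50 bases after a RefSeq start (GRCm38.p6), 5′ to 3′ on the strand of the gene.
Cldn5, chr16:18776597-18776896, plus strand: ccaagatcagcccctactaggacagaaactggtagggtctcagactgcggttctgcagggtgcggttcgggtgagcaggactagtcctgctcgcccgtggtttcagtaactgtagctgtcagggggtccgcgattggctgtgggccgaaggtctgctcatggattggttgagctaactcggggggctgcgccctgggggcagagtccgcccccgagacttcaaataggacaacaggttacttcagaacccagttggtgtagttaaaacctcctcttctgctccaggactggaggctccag
Cldn18 upstream start, chr9:99717218-99717517, minus strand: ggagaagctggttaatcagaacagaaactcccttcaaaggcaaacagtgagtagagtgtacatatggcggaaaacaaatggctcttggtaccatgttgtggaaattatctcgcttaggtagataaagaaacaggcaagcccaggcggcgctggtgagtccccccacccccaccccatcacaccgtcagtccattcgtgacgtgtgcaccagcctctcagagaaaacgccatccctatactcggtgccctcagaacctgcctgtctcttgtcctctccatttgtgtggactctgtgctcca
Cldn18 downstream start, chr9:99710014-99710313, minus strand: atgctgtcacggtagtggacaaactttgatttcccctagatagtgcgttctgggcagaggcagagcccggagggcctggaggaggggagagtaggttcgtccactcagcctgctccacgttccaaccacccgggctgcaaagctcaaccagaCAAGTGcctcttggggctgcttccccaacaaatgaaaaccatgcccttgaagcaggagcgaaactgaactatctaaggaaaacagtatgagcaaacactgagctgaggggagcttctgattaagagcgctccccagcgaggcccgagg
Capitals mark the letters CAAGTG, a core bound by NKX2-type factors, found on the gene strand with its first base at −98 from the downstream *Cldn18* start. Windows were found for 5 of the 8 genes (7 windows), and CAAGTG (NKX2-type), AGGAAG (ETS-type) and TATAAA, the core box of many gene starts, were looked for on both strands. This was the only match in the 7 windows, while CAAGTG occurs in 13.56%, AGGAAG in 35.35% and TATAAA in 13.62% of all 32851 windows of this length. The *Cldn5* window had 58.3% GC and the *Cldn18* windows 52% and 55.7%, beside a median of 52.7% over all windows. UMIs counted at the 3′ end do not tell the *Cldn18* starts apart.

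*Cdh5* codes for VE-cadherin, the cadherin of the endothelial adherens junction, and has 12 exons on the plus strand of chromosome 8, between 104101625 and 104144511. An antisense gene, *Gm29682*, overlaps it on the opposite strand. EC-like cells held *Cdh5* at 2167 CPM in normoxia (7800 UMIs) and at 2357 CPM in hypoxia (4920 UMIs). The hypoxia/normoxia ratio was 1.09 (95% CI 1.05 to 1.13), and it turned to a log2 ratio of −0.02 when each cell was given equal weight. The median EC-like cell had 7 *Cdh5* UMIs in normoxia and 5 in hypoxia. A *Cdh5* UMI was found in 94.2% of normoxia and 85.7% of hypoxia EC-like cells at full depth, and in 85.4% and 83.7% of those with at least 1000 UMIs after each was thinned to 1000. In leukocyte-like cells of normoxia, which should lack the gene, the thinned share was 5.56% of 18 cells, at a median depth of 4685 UMIs against 3851 in EC-like cells. Most single EC-like cells thus held *Cdh5*, but its UMIs were not confined to them. Outside the EC-like cells, normoxia levels ran from 0 UMIs in AT2-like cells to 1116 CPM in platelet-like cells. They were 52.3 CPM in fibroblast-like, 724 CPM in pericyte-like and 1064 CPM in unnamed cells. EC transcripts were also present there. The 10 EC markers summed to 546 CPM in fibroblast-like, 5039 CPM in pericyte-like, 9407 CPM in platelet-like and 9694 CPM in unnamed cells, beside 14775 CPM in EC-like cells. The part of EC transcripts in these *Cdh5* levels was not tested.

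*Cdh5* varied by EC subtype more than by library. In normoxia its level was highest in *Ntrk2*-high capillary cells (2771 CPM, CI 2479 to 3088) and aerocytes (2766 CPM, CI 2645 to 2891), which did not differ beyond their intervals. General capillary cells followed with 2171 CPM (CI 2111 to 2233), then arterial cells with 1545 CPM, *Vwf*-high cells with 1059 CPM and lymphatic cells with 363 CPM (14 UMIs). In hypoxia the order ran from aerocytes (2932 CPM) over *Ntrk2*-high (2417 CPM), arterial (2193 CPM) and general capillary cells (2008 CPM) to *Vwf*-high cells (1478 CPM) and lymphatic cells (262 CPM, 2 UMIs). Arterial cells overlapped with both neighbours in their intervals there. The hypoxia/normoxia ratio of *Cdh5* was 1.42 (CI 1.20 to 1.68) in arterial cells and 1.40 (CI 1.14 to 1.70) in *Vwf*-high cells, and 0.872 (CI 0.777 to 0.981) in *Ntrk2*-high cells. Pooled over 5 gated subtypes, so that a change in the mix of these groups does not enter, it was 1.03 (CI 0.982 to 1.08), which spans 1. A change in the mix of cells within a gate can still enter.

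*Cldn5*, the tight junction claudin of ECs, had 3483 CPM in EC-like cells of normoxia (12537 UMIs) and 3134 CPM in those of hypoxia (6542 UMIs). The ratio was 0.8998 (CI 0.873 to 0.927), and pooled within subtypes it was 0.983 (CI 0.946 to 1.02), which spans 1. Shares of EC-like cells with a *Cldn5* UMI were 95.9% in normoxia and 84.7% in hypoxia at full depth, and 90.5% and 81.8% after thinning, beside 5.56% of thinned leukocyte-like cells in normoxia. Aerocytes had the highest level in both libraries, 5314 CPM in normoxia and 5795 CPM in hypoxia. The lowest was in *Vwf*-high cells of normoxia, with 1359 CPM, and in arterial cells of hypoxia, with 2039 CPM. Lymphatic cells, in which *Cdh5* was low, had *Cldn5* at 3263 CPM in normoxia (126 UMIs, CI 2718 to 3885), a level within the range of the blood ECs.

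**Figure D1:**
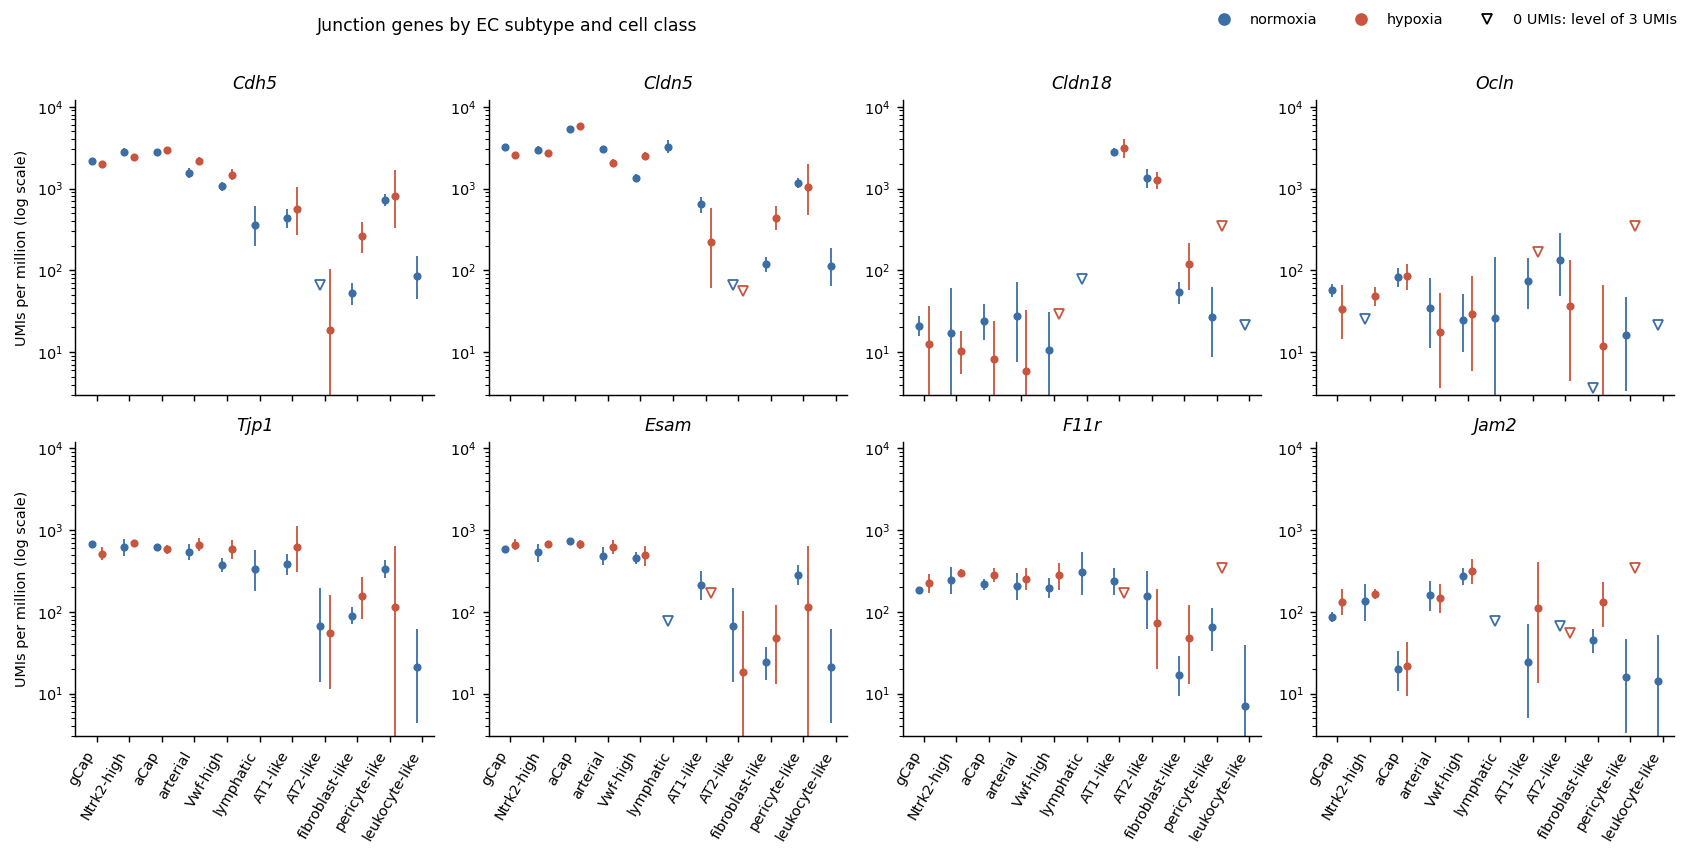
Level of each junction gene (vertical axis, CPM, log scale) by EC subtype and cell class (horizontal axis) in the normoxia and hypoxia libraries, with exact Poisson 95% intervals. Open triangles mark groups with 0 UMIs, drawn at the level 3 UMIs would give, and groups under 5 cells are left out. *Cdh5* and *Cldn5* stood above 1000 CPM in every blood EC subtype, and *Cldn18* above 1000 CPM in AT1-like and AT2-like cells.

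The hypoxia/normoxia ratio of *Cldn5* ran in opposite directions between EC subtypes. It was 0.797 (CI 0.733 to 0.865) in general capillary cells, from 3249 to 2589.9 CPM, and 0.669 (CI 0.579 to 0.772) in arterial cells, from 3048 to 2039 CPM. It was 1.84 (CI 1.57 to 2.16) in *Vwf*-high cells, from 1359 to 2506 CPM. The *Vwf*-high cluster held 19 hypoxia cells, fewer than the 28 gated ones, so some gated hypoxia cells lay in other clusters. In aerocytes the ratio was 1.09 (CI 1.03 to 1.15), with a log2 ratio of −0.0042 when each cell was given equal weight. *Ntrk2*-high cells had 0.918 (CI 0.822 to 1.03), which spans 1. Depth moved with the general capillary value, since the hypoxia cells were the shallower, and with cells of at least 2000 UMIs alone the log2 ratio there was −0.11 in place of −0.33. The part of depth in this result was not tested further.

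*Ocln* codes for occludin, a membrane protein of tight junction strands, and lies on chromosome 13 from 100496507 to 100552718 on the minus strand. It was sparse, with 201 UMIs (55.8 CPM) in EC-like cells of normoxia and 104 UMIs (49.8 CPM) in those of hypoxia, or 0.892 times the level (CI 0.697 to 1.14). Pooled within subtypes the ratio was 0.996 (CI 0.708 to 1.40). The median EC-like cell had 0 *Ocln* UMIs in each library. The highest EC level was in aerocytes, with 81.9 CPM in normoxia and 84.9 CPM in hypoxia. In *Ntrk2*-high cells *Ocln* had 0 UMIs in normoxia, where 3 UMIs would be 25.4 CPM, and 48.6 CPM in hypoxia.

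*Tjp1* codes for ZO-1, the scaffold that ties tight junction proteins to actin, and lies on chromosome 7 from 65296165 to 65527781 on the minus strand with 28 exons. EC-like cells held it at 628 CPM in normoxia (2259 UMIs) and at 647 CPM in hypoxia (1351 UMIs). The ratio was 1.03 (CI 0.963 to 1.104). Pooled within subtypes the ratio was 0.980 (CI 0.890 to 1.08). Both intervals span 1 and cover counting error only, so they do not bound a difference between the conditions. By subtype, *Tjp1* was lower in hypoxia in general capillary cells, 515 against 676 CPM (ratio 0.763, CI 0.630 to 0.916). It was higher in *Vwf*-high cells, 586 against 374 CPM (ratio 1.56, CI 1.12 to 2.16). The general capillary cells also differed in depth, with medians of 1410 UMIs in hypoxia and 3609.5 in normoxia. With *Ntrk2*-high cells counted among the general capillary cells, the *Tjp1* ratio was 0.994 (CI 0.916 to 1.08), which spans 1. The lower general capillary value thus depended on how the capillary cells were divided.

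The immunoglobulin-type adhesion molecules *Esam*, *F11r* (JAM-A) and *Jam2* (JAM-B) are found at endothelial junctions, and *Esam* and *F11r* are also known from platelets. *Esam* lies on chromosome 9 from 37528078 to 37538319, *F11r* on chromosome 1 from 171437535 to 171464603 and *Jam2* on chromosome 16 from 84774123 to 84825928, all on the plus strand. *Esam* in EC-like cells had 2108 UMIs (586 CPM) in normoxia and 1338 UMIs (641 CPM) in hypoxia. Its ratio was 1.09 (CI 1.02 to 1.17), and 1.07 pooled within subtypes (CI 0.979 to 1.18), which spans 1.

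*F11r* was the only member with an interval above 1 both in all EC-like cells and pooled within subtypes. It went from 705 UMIs (196 CPM) in normoxia to 576 UMIs (276 CPM) in hypoxia in EC-like cells, which is a ratio of 1.41 (CI 1.26 to 1.57). Pooled within subtypes the ratio was 1.27 (CI 1.09 to 1.47). It was above 1 in each of 5 subtypes, at 1.30 in aerocytes, 1.22 in general capillary, 1.21 in *Ntrk2*-high, 1.23 in arterial and 1.41 in *Vwf*-high cells, but only the aerocyte interval (1.01 to 1.69) stayed above 1. With *Ntrk2*-high cells counted among the general capillary cells, the ratio there was 1.52 (CI 1.33 to 1.75), so it also depended on how the capillary cells were divided. Thinned shares of EC-like cells with an *F11r* UMI were 19.6% in normoxia and 23.9% in hypoxia, beside 49.6% and 46.1% at full depth, where the order is the opposite, and 0 of 18 thinned leukocyte-like cells in normoxia. When each cell was given equal weight, the log2 ratio of *F11r* in EC-like cells fell from 0.49 to 0.26 and in general capillary cells it was −0.28.

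*Jam2* was the member with the widest spread between EC subtypes. In EC-like cells it had 339 UMIs (94.2 CPM) in normoxia and 292 UMIs (139.9 CPM) in hypoxia, a ratio of 1.49 (CI 1.27 to 1.74), but pooled within subtypes the ratio was 1.23 (CI 0.988 to 1.52), which spans 1. Thinned shares were 8.10% and 14.7% of EC-like cells, beside 25.3% and 31.3% at full depth. General capillary cells, shallower in hypoxia, went from 87.4 to 133 CPM (ratio 1.52, CI 1.01 to 2.22). The hypoxia level lay on 32 UMIs, and 1 cell held 12.5% of them. With *Ntrk2*-high cells counted among the general capillary cells, the pooled log2 ratio was 0.63 in place of 0.29, so the size of this ratio depended on how the capillary cells were divided.

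**Figure D2:**
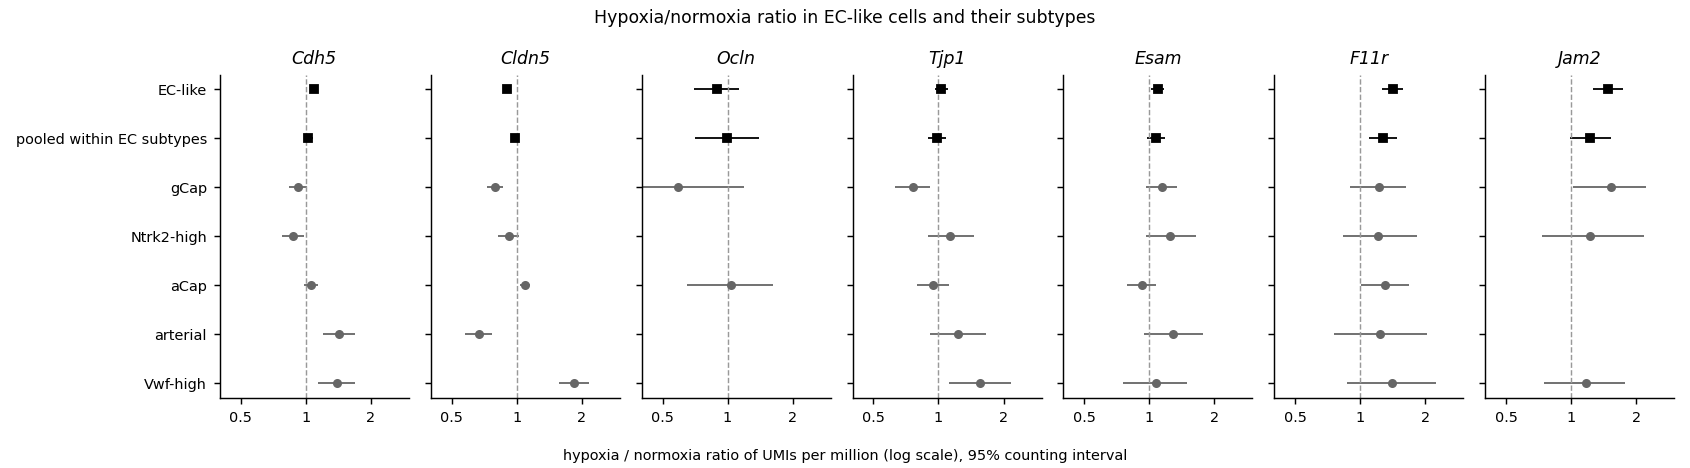
Hypoxia/normoxia ratio of 7 junction genes (horizontal axis, log scale, exact conditional 95% counting interval) in all EC-like cells, pooled within EC subtypes (squares) and in each subtype (circles); groups with fewer than 50 UMIs in both libraries together are left out, as is *Cldn18*. *F11r* lies to the right of 1 in every line, though it fell to the left in general capillary cells when cells were weighted equally, and *Cldn5* ranges from 0.669 in arterial to 1.84 in *Vwf*-high cells.

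In EC-like cells, 1 of the 8 genes was past 1.5-fold between the libraries (*Cldn18*, lower in hypoxia), while 17.6% of the 8753 genes with at least 50 UMIs were past it. The median log2 ratio was 0.08 over the 8 genes and 0.03 over all genes. In general capillary cells, 3 of the 8 genes were past 1.5-fold (*Jam2* higher, *Cldn18* and *Ocln* lower), beside 34.0% of 6492 genes. *Cldn18* and *Ocln* had only 3 and 8 UMIs in hypoxia there, and their intervals (0.118 to 1.835 and 0.248 to 1.19) span 1. None of the 6 genes with enough UMIs was past 1.5-fold in aerocytes, beside 19.5% of 3781 genes, and none of 5 in arterial cells, beside 30.6% of 1120 genes. In *Vwf*-high cells, 2 of 6 genes were higher past it (*Cldn5* and *Tjp1*), beside 28.5% of 1372 genes. The junction genes thus moved past 1.5-fold at shares near or under those of all genes.

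The spread between EC subtypes was larger than that between the libraries for several members. Aerocytes were set against general capillary cells of the same library. *Jam2* in normoxia had 19.8 CPM in aerocytes (14 UMIs) against 87.4 CPM in general capillary cells (199 UMIs), a ratio of 0.226 (CI 0.121 to 0.388). In hypoxia it had 21.9 against 133 CPM on 40 UMIs in all, a ratio of 0.165 (CI 0.0655 to 0.365). *Cldn5* went the other way, with ratios of 1.64 (CI 1.57 to 1.70) in normoxia and 2.24 (CI 2.05 to 2.45) in hypoxia. *Cdh5* was also higher in aerocytes in both libraries, at 1.27 (CI 1.21 to 1.34) and 1.46 (CI 1.31 to 1.63). *Esam* was higher in normoxia alone, at 1.26 (CI 1.14 to 1.40), against 1.02 (CI 0.835 to 1.26) in hypoxia, and the difference between these ratios was not tested. *Tjp1* and *F11r* did not differ between these capillary types beyond their intervals in either library. In normoxia 2 of 8 genes were past 1.5-fold, beside 34.6% of 7071 genes, and in hypoxia 1 of 5, beside 41.4% of 2350 genes.

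*Vwf*-high non-arterial cells showed the reverse pattern for *Jam2*. They had 77 *Jam2* UMIs (272 CPM) in normoxia and 33 (317 CPM) in hypoxia, the highest of the 5 blood EC subtypes in each library. Relative to general capillary cells the ratio was 3.11 (CI 2.36 to 4.07) in normoxia and 2.38 (CI 1.42 to 4.00) in hypoxia. *Cdh5* was lower there in both libraries, at 0.488 (CI 0.433 to 0.548) and 0.736 (CI 0.610 to 0.884). *Cldn5* and *Tjp1* were lower in normoxia, at 0.418 (CI 0.377 to 0.464) and 0.554 (CI 0.450 to 0.674). In hypoxia their ratios were 0.967 (CI 0.834 to 1.12) and 1.14 (CI 0.822 to 1.56), both spanning 1. In normoxia 6 of 8 genes were past 1.5-fold (5 lower, *Jam2* higher), beside 32.1% of 6573 genes. Of the 5 lower ones, *Cldn18* had 3 UMIs in *Vwf*-high cells and an interval (0.100 to 1.56) that spans 1, and *Ocln* had 7 (CI 0.172 to 0.925). In hypoxia 1 of 6 genes was past 1.5-fold, *Jam2*, beside 30.0% of 1281 genes.

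**Figure D3:**
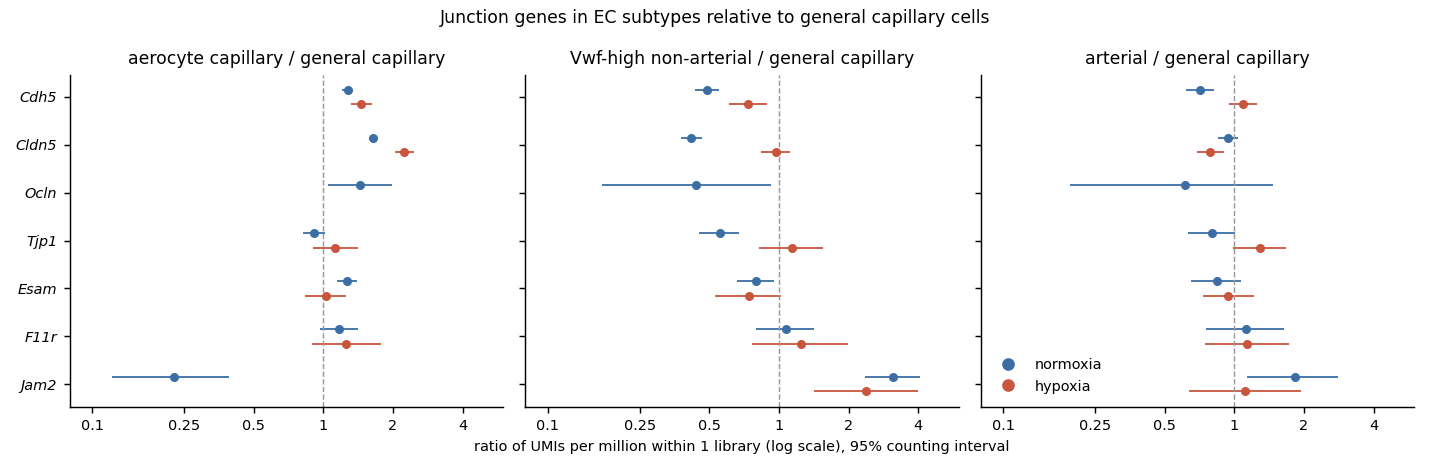
Ratio of each EC subtype to general capillary cells of the same library (horizontal axis, log scale, 95% counting interval) for 7 junction genes, by library; ratios on fewer than 50 UMIs are left out. *Jam2* is at 0.226 in aerocytes and 3.11 in *Vwf*-high cells of normoxia, and *Cldn5* is to the right of 1 in aerocytes of both libraries.

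Arterial cells were closer to general capillary cells, and most of the cells gated as arterial lay in capillary clusters. In normoxia their *Cdh5* ratio was 0.711 (CI 0.619 to 0.814) and their *Jam2* ratio 1.82 (CI 1.13 to 2.81). In hypoxia *Cldn5* was lower, at 0.787 (CI 0.688 to 0.8996), while *Cdh5* (1.09) and *Jam2* (1.11) had intervals that span 1. Lymphatic cells of normoxia had 0 UMIs of *Esam* and of *Jam2*, where 3 UMIs would be 77.7 CPM, while *F11r* had 311 CPM and *Tjp1* 337 CPM on 12 and 13 UMIs. Only 10 normoxia and 4 hypoxia lymphatic cells were found, and *Esam* had 1 UMI in the latter.

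The 11 EC-like clusters with general capillary or *Ntrk2*-high markers also differed among themselves. *Cdh5* ran from 938.5 to 2473 CPM and *Cldn5* from 850.5 to 3634 CPM over these clusters, both libraries summed. The lowest of both was a cluster of 6 normoxia and 69 hypoxia cells in which *Esam* was also lowest, at 117 CPM. With the EC-like clusters of low *Malat1*, a nuclear RNA, left out, the log2 ratio of *Cldn5* in EC-like cells was −0.10 in place of −0.15. After thinning to 1000 UMIs, a cell of at least that depth held UMIs of a median of 3 of 6 members (*Cldn18* and *Ocln* apart) in EC-like cells of each library. The share with at least 4 of them was 26.8% in normoxia and 32.3% in hypoxia. Among the 5 blood EC subtypes it was lowest in *Vwf*-high cells of normoxia, at 6.38%, against 36.0% of these cells in hypoxia.

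*Cldn18* codes for claudin-18, and its lung form is a known product of alveolar epithelial cells. AT1-like cells held 344 UMIs of it in normoxia, at 2815 CPM (CI 2526 to 3129), and 56 UMIs in hypoxia, at 3144 CPM (CI 2375 to 4082). The ratio was 1.12 (CI 0.826 to 1.49). The median AT1-like cell had 3 *Cldn18* UMIs in normoxia and 1 in hypoxia, and 1 cell held 21.8% of the UMIs in normoxia and 33.9% in hypoxia. The cell limits had removed 69.05% of the *Cldn18* UMIs of the normoxia library and 29.65% of those of the hypoxia library. AT2-like cells, the surfactant-making cells, had 60 UMIs (1329 CPM) in normoxia and 68 UMIs (1254 CPM) in hypoxia. EC-like cells had 21.9 CPM on 79 UMIs in normoxia and 9.58 CPM on 20 UMIs in hypoxia, and 1 cell held 25% of the latter. That ratio, 0.437 (CI 0.253 to 0.720), lay on few UMIs. With up to 10% mitochondrial UMIs allowed, its log2 value was −0.14 in place of −1.20, and pooled within subtypes it turned from −1.27 to 0.78. Summed AT1 markers in EC-like cells were 775 CPM in normoxia and 677 CPM in hypoxia, all 10 detected in each. Their part in the *Cldn18* of ECs was not tested.

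A gate of at least 3 of 10 AT1 markers did not select AT1 cells alone. It took 135 normoxia and 48 hypoxia cells, of which 78 and 33 were EC-like, 39 and 8 AT1-like and 2 and 4 AT2-like by cluster. Among the gate's markers, *Hopx*, *Lmo7* and *Gprc5a* also stood at 1632, 342 and 90.4 CPM in aerocytes of normoxia. *Cldn18* in the gated cells went from 574 to 346 CPM, a ratio of 0.603 (CI 0.490 to 0.737). Within the gate, the AT1-like cells had *Cldn18* at 3199 and 3237 CPM, a ratio of 1.01 (CI 0.713 to 1.40), and the EC-like cells 64.3 and 28.0 CPM. The ratio was thus below 1 in the gated cells, while that of the AT1-like cluster had an interval that spans 1. In gated cells without a UMI of *Pecam1* or *Egfl7*, a pair of EC markers, the *Cldn18* ratio was 0.551 (CI 0.407 to 0.735) over 25 normoxia and 8 hypoxia cells. There 1 hypoxia cell, an AT2-like one with 27 *Cldn18* UMIs, held 44.3% of them. AT1 markers summed to 19173 CPM in these normoxia cells and to 4754 CPM in the hypoxia ones, so this ratio compares unlike mixes of cells. In AT1-like cells without a UMI of *Pecam1* or *Egfl7* the *Cldn18* ratio was 0.7299 (CI 0.329 to 1.415), with all 9 hypoxia UMIs in 1 of 3 cells. *Cdh5* and *Cldn5* in the gated cells, 1967 and 3415 CPM in normoxia, were at EC-like levels.

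Claudins of both cell types were found in the same barcodes. Of 45 AT1-like cells in normoxia, 23 had UMIs of *Cldn18* together with *Cldn5* or *Cdh5*, 13 had *Cldn18* alone, 4 had *Cldn5* or *Cdh5* alone and 5 had neither. Of 12 in hypoxia, 4, 3, 3 and 2 fell into these classes. Among the deepest AT1-like cells of normoxia, of at least 7707 UMIs, those with 75, 62, 53 and 4 *Cldn18* UMIs had 0 *Cldn5* UMIs. Those with 15, 5 and 5 *Cldn18* UMIs also had 15, 11 and 13 of *Cldn5* and 12, 7 and 10 of *Cdh5*. In aerocytes of normoxia, 11 of 122 cells had *Cldn18* with *Cldn5* or *Cdh5*, 0 had *Cldn18* alone, 109 had *Cldn5* or *Cdh5* alone and 2 had neither. Nearly all aerocytes held *Cldn5* or *Cdh5*, so few could have had *Cldn18* alone. The 10 EC markers summed to 4329 CPM in AT1-like cells of normoxia and 3593 CPM in hypoxia, beside 14775 and 12947 CPM in EC-like cells. Whether such barcodes hold doublets, free RNA or cells with both transcripts was not tested.

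**Figure D4:**
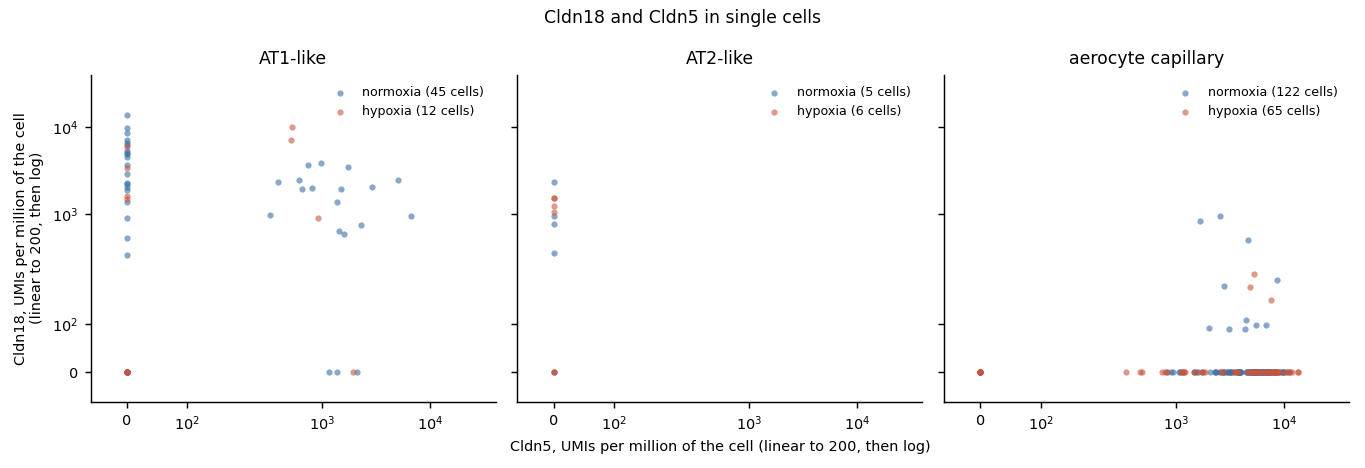
*Cldn18* (vertical axis) against *Cldn5* (horizontal axis) in single AT1-like, AT2-like and aerocyte capillary cells, in CPM of the cell, linear to 200 and then log; each point is 1 cell of the normoxia or hypoxia library. AT1-like cells lie both on the vertical axis, with *Cldn18* and no *Cldn5* UMI (20 of 45 in normoxia), and inside the plot, with both claudins (16). No aerocyte has *Cldn18* without *Cldn5* or *Cdh5*, but nearly all aerocytes held *Cldn5* or *Cdh5*.

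The 18 AT1-like cells of normoxia without a UMI of *Pecam1* or *Egfl7* gave the members' levels with fewer EC transcripts. *Cldn18* there was 3782 CPM (192 UMIs), and *Cdh5* and *Cldn5* were 118 CPM each (6 UMIs each). *F11r* was 355 CPM (18 UMIs), *Tjp1* 374 CPM (19 UMIs), *Esam* 177 CPM (9 UMIs) and *Ocln* 138 CPM (7 UMIs), while *Jam2* had 0. The EC-like levels of *F11r* and *Ocln* were 196 and 55.8 CPM, but 1 of the 18 cells held 50% of the *F11r* UMIs and 1 held 42.9% of those of *Ocln*. In the 12 AT1-like cells of hypoxia both genes had 0 UMIs, where 3 UMIs would be 168 CPM.

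To read the members where EC transcripts were also present, each was divided by the *Cdh5* UMIs of the same class and set against the same quotient in EC-like cells of the same library. The values here are from normoxia unless stated. A value of 1 is the quotient of all EC-like cells of the library, and the EC subtypes themselves lay on both sides of it. Over the 5 blood EC subtypes *Cldn5* ran from 0.668 to 1.23, *Tjp1* from 0.767 to 1.22, *Esam* from 0.713 to 1.603, *F11r* from 0.864 to 2.07 and *Jam2* from 0.164 in aerocytes to 5.91 in *Vwf*-high cells. Lymphatic cells, on few UMIs, reached 3.21 for *Tjp1*, 9.48 for *F11r* and 2.77 for *Ocln*. Values within these ranges do not set a class apart from ECs. In AT1-like cells *Cldn5* gave 0.916 (CI 0.637 to 1.32), which spans 1. *Cldn18* gave 636 (CI 438 to 939), *Ocln* 6.59 (CI 2.82 to 13.7), *F11r* 6.05 (CI 3.68 to 9.76), *Tjp1* 3.06 (CI 2.02 to 4.64) and *Esam* 1.81 (CI 1.09 to 2.96). Those of *F11r* and *Tjp1* lay above the blood EC subtypes and below the lymphatic value, and the interval of *Esam* reached into the range of the blood subtypes. In AT2-like cells of normoxia *Cdh5* and *Cldn5* had 0 UMIs, where 3 UMIs would be 66.4 CPM, while *F11r* had 155 CPM (7 UMIs) and *Ocln* 133 CPM (6 UMIs).

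In fibroblast-like cells of normoxia *Cldn18* had the largest quotient, 100.5 (CI 60.9 to 167), on 44 UMIs (53.5 CPM) beside 43 of *Cdh5* (52.3 CPM). In hypoxia it was 110.5 (CI 41.4 to 284) on 10 UMIs. In normoxia 1 cell held 20.45% of these *Cldn18* UMIs, and AT1 markers summed to 321 CPM, with 9 of 10 detected. Over both libraries, *Cldn18* was 190 CPM in a shallow fibroblast-like cluster (median 989.5 UMIs). It was 34.45 and 7.73 CPM in the deeper ones. The source of this *Cldn18* was not tested. *Jam2* had the next largest value, with 37 UMIs (45.0 CPM) in normoxia, a quotient of 19.8 (CI 12.2 to 31.9), and 8.42 in hypoxia (CI 3.65 to 18.3). *Tjp1* gave 5.94 (CI 4.01 to 8.89) and *F11r* 3.601 (CI 1.81 to 6.75) in normoxia, and *Cldn5* 1.40 (CI 0.969 to 2.06), which spans 1. The interval of *F11r* reached into the range of the blood EC subtypes. In hypoxia *Tjp1* gave 2.15 (CI 0.993 to 4.48) and *F11r* 1.55 (CI 0.388 to 4.595), both spanning 1.

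Pericyte-like cells of normoxia had *Cdh5* at 724 CPM (135 UMIs) and *Cldn5* at 1175 CPM (219 UMIs). EC markers summed to 5039 CPM there. The 2 pericyte-like clusters differed, both libraries summed. A shallow one (median 1418 UMIs), with all EC markers detected, had *Cdh5* at 1573 and *Cldn5* at 2791 CPM. The deeper one (median 4972 UMIs) had 249 CPM of each. The part of EC transcripts in these levels was not tested. The *Cldn5* quotient was 1.01 (CI 0.809 to 1.26) and that of *F11r* 0.983 (CI 0.493 to 1.79), both spanning 1. *Tjp1*, at 1.61 (CI 1.17 to 2.20), and *Esam*, at 1.45 (CI 1.03 to 2.02), had intervals above 1 that reach into the range of the blood EC subtypes. SMC-like cells had *Tjp1* at 203 CPM (20 UMIs) with a single *Cdh5* UMI. In platelet-like cells *Esam* was 478 CPM (18 UMIs) and *F11r* 186 CPM (7 UMIs), and their quotients, 1.59 (CI 0.857 to 2.82) and 1.84 (CI 0.696 to 4.16), span 1. Leukocyte-like cells held 12 *Cdh5* UMIs, 16 of *Cldn5* and 1 of *F11r*. The hypoxia library had 6 pericyte-like, 5 platelet-like and 3 leukocyte-like cells, too few for levels of these genes.

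**Figure D5:**
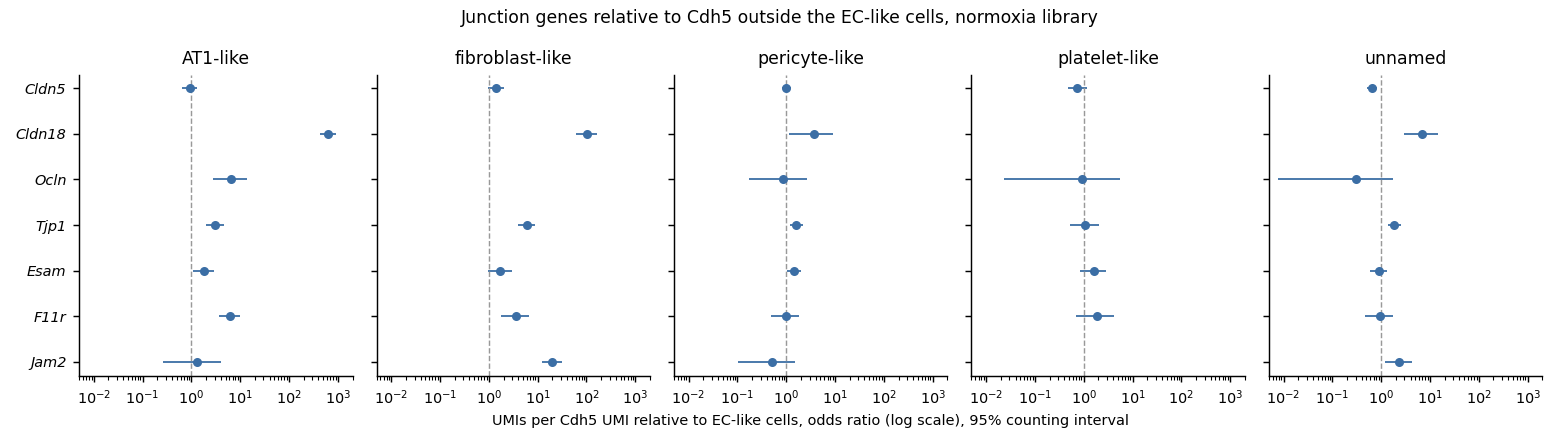
UMIs of 7 junction genes per *Cdh5* UMI in 5 cell classes of the normoxia library, relative to EC-like cells (horizontal axis, odds ratio, log scale, 95% counting interval). *Cldn5* lies near 1 in AT1-like and pericyte-like cells, *Cldn18* far to the right in AT1-like (636) and fibroblast-like cells (100.5), and *Jam2* in fibroblast-like cells (19.8). The *Cldn18* level itself was 2815 CPM in AT1-like and 53.5 CPM in fibroblast-like cells, where *Cdh5* was 52.3 CPM.

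Other junction genes were read from lists of adherens, tight, gap and desmosome genes and of endothelial contact genes and junction regulators, beside the 17.6% of all genes past 1.5-fold in EC-like cells. Of 13 adherens junction genes, 10 had at least 50 UMIs, 1 was higher in hypoxia past 1.5-fold (*Nectin1*), 1 lower (*Cdh13*), and the median log2 ratio was −0.02. Of 19 tight junction genes, 8 had enough UMIs, *Cgnl1* (cingulin-like 1) was higher and none lower, with a median of −0.22. Among 18 contact and regulator genes, 16 had enough UMIs, *Sox18* was higher and *Plvap* lower, with a median of −0.01. Of 5 gap junction genes, 4 had enough UMIs, *Gja4* was higher and *Gja1* and *Gja5* lower, with a median of −0.36. None of 5 desmosome genes had 50 UMIs.

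By the interval bound nearest 1, the highest list genes in EC-like cells were the connexin *Gja4* (215 to 411 CPM, ratio 1.92, CI 1.74 to 2.11), the transcription factor *Sox18* (269 to 456 CPM, ratio 1.69, CI 1.54 to 1.85), *Icam2* (ratio 1.41), *Mcam* (ratio 1.33) and *Nectin1* (ratio 1.80). Within subtypes the pooled ratios of *Gja4*, *Sox18* and *Icam2* were 1.49, 1.81 and 1.42. The lowest were *Plvap*, the protein of fenestral and caveolar diaphragms (1038 to 149 CPM, ratio 0.144, CI 0.128 to 0.162), *Gja1* (ratio 0.0690), *Cdh13* (ratio 0.0862), *Vcl* (ratio 0.733) and *Tek* (ratio 0.777). Pooled within subtypes, *Plvap* was 0.263 (CI 0.227 to 0.305) and *Gja1* 0.626 (CI 0.0937 to 4.18). *Gja4*, *Gja5* and *Plvap* were among the markers of the subtype gates, and the mix of subtypes differed between the libraries.

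Some genes of these lists also differed between aerocytes and general capillary cells. In normoxia, with gate markers left out, 2 of 8 adherens junction genes were higher in aerocytes past 1.5-fold and 1 lower. Of 7 tight junction genes 2 were higher and 2 lower, and of 15 contact and regulator genes 1 was higher and 4 lower. The 1 gap junction gene with enough UMIs was neither. Over all 7071 genes, 34.6% were past 1.5-fold in this comparison. As examples chosen after their values were seen, *Nectin3*, an adhesion molecule of adherens junctions, was higher in aerocytes in normoxia (ratio 9.34, CI 7.46 to 11.8) and in hypoxia (ratio 14.1), and *Vcl*, the actin linker vinculin, had ratios of 3.90 and 3.17. *Icam2*, a ligand of leukocyte integrins, was at 2.70 in each library. Lower in aerocytes were *Ptprb*, the phosphatase VE-PTP that binds VE-cadherin (ratios 0.0739 and 0.105), *Tek*, the angiopoietin receptor (0.0804 and 0.0959), *Heg1* (0.470 and 0.263) and *Ctnnb1*, β-catenin (0.448 and 0.311). None of these 7 genes was a marker of the subtype gates.

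Over 14 groups of at least 20 cells (a class or subtype in 1 library), the 3 genes most like each member were ranked by Pearson's r of log2(CPM + 10), as a description, since groups share libraries and depth. *Cdh5* was nearest to *Adgre5* (0.986), *4931406P16Rik* (0.984) and *Slco2a1* (0.984), and *Cldn5* to *Ramp2* (0.987), *S1pr1* (0.977) and *Cdh5* (0.975). *Tjp1* was nearest to *Calcrl* (0.977), *Esam* (0.969) and *Gata2* (0.966), *Esam* to *Gata2* (0.986), *Slfn5* (0.980) and *Calcrl* (0.976), and *F11r* to *Cav2* (0.973), *Cd9* (0.967) and *Pxn* (0.956). *Cldn18* was nearest to *Sec14l3* (0.978), *Hs2st1* (0.976) and the AT1 gene *Ager* (0.976). AT1-like cells of normoxia were the only epithelial group among the 14, so these values rest largely on that group, and *Ager* was a marker of its class. *Jam2* followed *Heg1* (0.930), *Prcp* (0.930) and *Nos3* (0.907), and its r with *Cldn5* was 0.0919. *Ocln* had the weakest likeness, to *Rhoa* (0.853), *Ccnd1* (0.848) and *Ppp1ca* (0.840).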

How the data were processed

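Lung cells were measured by 10x Chromium 3′ v3.1 single-cell RNA sequencing, in 2 libraries, 1 per condition. The authors counted UMIs against mm10, and the deposited matrices are raw counts of genes in cell-containing barcodes. Per the file headers they were made with Cell Ranger 6.1.2, while the text of the study names other versions. The normoxia matrix holds 2223 cells and 7630683 UMIs, the hypoxia matrix 809 cells and 2685345 UMIs.

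Kept cells had 200 to 4000 detected genes and no more than 5% mitochondrial UMIs (the study also gives an upper limit of 6000 genes, used as an alternative). Doublets were treated by the upper limit on genes alone, since Scrublet called 0.045% and 0.371% of cells. Only 1 barcode was shared by the libraries. Counts were scaled to 10000 per cell, logged, and clustered by the Leiden method on 30 principal components with 15 neighbours at a resolution of 2, without the 8 genes and without batch correction (scanpy 1.11.5, igraph 0.11.9, numpy 2.4.6, scipy 1.17.1, pandas 2.3.3, matplotlib 3.10.9). A cluster took the class with most markers among its 10 leading genes by fold, where that was at least 2, and otherwise the class with the largest share of its markers detected, in at least 25% of cells. It was called X-like with at least 3 of them detected, and stayed unnamed otherwise, or where its cells were shallow for their library and none of its 10 leading genes was a marker of that class. Among the leading genes, markers of EC subtypes counted as EC markers. Each EC-like cell went to the subtype with the largest share of its markers, with at least 2 detected. The cell classes are rebuilt from markers and need not be those of the study.

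Levels carry exact Poisson, ratios exact conditional binomial and shares exact Clopper-Pearson 95% intervals, which cover counting error only. Beside 0 UMIs stands the level that 3 UMIs would give. Ratios are counted past 1.5-fold where both groups together have at least 50 UMIs. Pooled ratios weight 5 EC subtypes. No test was made. Statistics were tested on simulated counts. The members, lists and subtype markers were chosen with earlier results of these data known. The text names the 8 members, up to 5 list genes each way in EC-like cells, and 3 genes most like each member. Other list genes are examples chosen after their values were seen. *Cd99* of the lists was not matched by symbol. Gene positions are from GENCODE for GRCm38, and promoter windows from RefSeq. Alternatives covered cell limits, clustering, gates, scaling, weights and thinning.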

Additional observations from a re-analysis of the deposited data

Results flagged for a closer look

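The hypoxia/normoxia ratio of 3 junction genes lay on opposite sides of 1 in different EC subtypes, with intervals that exclude 1 on each side. For *Cdh5* it was 1.42 in arterial and 1.40 in *Vwf*-high non-arterial cells, and 0.872 in *Ntrk2*-high capillary cells. *Cldn5* had 1.09 in aerocyte capillary and 1.84 in *Vwf*-high cells, and 0.797 in general capillary and 0.669 in arterial cells. For *Tjp1* it was 1.56 in *Vwf*-high and 0.763 in general capillary cells. With *Ntrk2*-high cells counted as general capillary, the general capillary ratio of *Tjp1* was 0.994 (interval 0.916 to 1.08), which spans 1. That of *Cldn5* was then 0.836 (interval 0.804 to 0.870). The aerocyte value of *Cldn5* fell just below 1 with each cell weighted equally. Of the 28 *Vwf*-high cells of hypoxia, 1 held 16.5% of the *Cldn5* UMIs and 1 held 16.4% of those of *Tjp1*. The *Vwf*-high cluster held 19 hypoxia cells, so some of these 28 gated cells lay in other clusters. *Ntrk2*-high cells numbered 23 in normoxia, and their type and library cannot be told apart. With 1 library per condition the differences between subtypes were not tested.

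*Cldn18* was also read in the cells that the limits on genes and mitochondrial UMIs had removed, 875 in normoxia and 120 in hypoxia. Its level there was 491 CPM in normoxia against 105 CPM in kept cells, a ratio of 4.70 (interval 4.24 to 5.21), and 172 against 69.3 CPM for the hypoxia library, which is 2.48 times as high (interval 1.83 to 3.32). The removed normoxia cells held 69.05% of that library's *Cldn18* UMIs, and the removed hypoxia cells 29.65% of those of the hypoxia library. In normoxia, 115 removed cells with at least 3 AT1 markers held 1141 *Cldn18* UMIs, at a median of 7.11% mitochondrial UMIs. Among cells of the AT1 gate with fewer than 5 EC markers, *Cldn18* was instead lower in the removed cells of normoxia, at 1071 CPM (interval 994 to 1153, 78 cells) against 2977 CPM (interval 2675 to 3305, 34 cells) in kept ones. In hypoxia these levels were 1493 CPM in 3 removed and 1659 CPM in 15 kept cells. Each of the other 7 genes was lower in removed than in kept cells in both libraries, with intervals that span 1 for *Ocln* in both and for *F11r* in hypoxia.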

How the results depend on the processing

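No paired analysis was possible because there is only 1 library of each condition. All values here are log2 ratios, hypoxia over normoxia. Under 20 alternative settings, 5 of them chosen after seeing the data, 1151 alternative values were computed for 92 results, and 4 values whose interval had excluded 1 changed direction. *Cdh5* in EC-like cells went from 0.12 to −0.021 and *Cldn5* in aerocytes from 0.13 to −0.0042 with each cell weighted equally, *Cldn18* in the AT1 gate from −0.73 to 0.16 in the AT1-like cluster, and *Cldn18* pooled within subtypes from −1.27 to 0.78 with up to 10% mitochondrial UMIs. Other values moved by more than their counting interval. Where the main interval had spanned 1, a change of sign was not counted as a change of direction. *F11r* in general capillary cells was such a case and turned negative with each cell weighted equally. In EC-like cells, scaling by the median ratio of genes gave 0.063 for *Cdh5* and −0.21 for *Cldn5*, and a gate on EC markers 0.19 and −0.070. For *Cldn5* in EC-like cells, −0.095 was found with up to 6000 genes, −0.066 with up to 10% mitochondrial UMIs, −0.40 with equal cell weights, −0.10 without clusters of low *Malat1* and −0.086 with cells of at least 2000 UMIs. Equal cell weights gave 0.028 for *Esam* and 0.255 for *F11r* in EC-like cells. *Cldn18* in the AT1 gate was −1.22 with up to 6000 genes. Pooled within subtypes, median ratio scaling gave −0.036 for *Cdh5* and −0.11 for *Cldn5*, and *Ntrk2*-high cells counted as general capillary gave 0.12, −0.11 and, for *Jam2*, 0.63. Subtypes taken by cluster gave −0.19 for pooled *Cldn5* and 0.70 for *Jam2*, and pooled *Cldn5* was 0.035 with the EC gate and 0.033 without clusters of low *Malat1*. Shares of EC-like cells thinned to 500 UMIs gave −0.13 for *Cdh5* and −0.27 for *Cldn5*, and thinned to 2000 UMIs −0.044 for *Cldn5*. The cause of these shifts was not tested. The 45 normoxia and 12 hypoxia AT1-like cells, and the 79 and 20 *Cldn18* UMIs in EC-like cells, limit what can be read of *Cldn18* between the libraries.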

Other observations

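The few epithelial cells that passed the depletion also held epithelial junction genes that EC-like cells nearly lacked. The genes named are examples chosen after their values were seen. In normoxia *Cdh1*, E-cadherin, had 139 CPM in AT1-like cells (17 UMIs) and 310.0 CPM in AT2-like cells (14 UMIs) against 1.94 CPM in EC-like cells. *Cldn3* had 164 CPM (20 UMIs) and 686 CPM (31 UMIs) against 0.278 CPM, and *Cldn7* 164 CPM (20 UMIs) and 88.6 CPM (4 UMIs) against 1.39 CPM. The desmosome genes *Dsp* and *Pkp2*, which link junctions to intermediate filaments, had 49.1 CPM (6 UMIs) and 98.2 CPM (12 UMIs) in AT1-like cells. The other desmosome genes of the list had few UMIs there, with 3 of *Perp*, 1 of *Dsg2* and 0 of *Dsc2*, as did *Cldn4* with 1 and *Cldn1* with 0.

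In hypoxia the 12 AT1-like cells held 4 UMIs of *Cdh1*, 2 of *Dsp*, 1 of *Pkp2* and 0 of *Cldn3* and *Cldn7*, where 3 UMIs would be 168 CPM. AT2-like cells of hypoxia had *Cdh1* at 240 CPM (13 UMIs), *Cldn3* at 572 CPM (31 UMIs) and *Cldn7* at 369 CPM (20 UMIs).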
